A study of Mus musculus with 6 samples.

Results

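Mitosis and cytokinesis genes code for the machinery that separates the chromosomes and cuts the cell in 2. The 38 genes described here were read by symbol from a table of 17904 mouse genes. All 38 reached 1 FPKM (fragments counted per unit of transcript length and of mapped fragments in the library) in at least 1 library, as did 11549 of the 17904 genes, which are called measured genes below. RNA had been sequenced from bone marrow-derived macrophages, grown from C57BL/6 marrow of 8-week-old mice for 5 days with M-CSF, the growth factor that drives macrophage precursors to divide and mature. The groups were Setd2-KO cells at 0, 12 and 24 h with LPS (bacterial lipopolysaccharide, 100 ng/ml) and WT cells at the same 3 times. Each of these 6 groups had 1 library. No cells were sequenced at 12 or 24 h without LPS, so LPS and further time in culture cannot be told apart. A fall after LPS or an LPS response below means a difference from 0 h. The labels do not describe the Setd2 allele, the promoter or cell type of any Cre, or the number of animals. Setd2 codes for the methyltransferase that places the trimethyl mark on lysine 36 of histone H3.

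As background, cyclin B with Cdk1 starts mitosis, and Aurora and Polo-like kinases build the spindle and correct its attachments. Kinetochores tie chromosomes to microtubules, the spindle checkpoint holds the anaphase-promoting complex until every kinetochore is attached, and a contractile ring then divides the cell. These genes are transcribed mainly in G2 and M phase, through a short promoter element named CHR (cell cycle genes homology region) bound by the MuvB complex with B-Myb and FoxM1 or with repressors, often beside CCAAT boxes bound by NF-Y. In bulk RNA, fewer dividing cells and less of these RNAs per cell cannot be told apart.

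The promoter sequences are shown because the members share these short elements, which were not used to choose them. RefSeq promoter windows (build GRCm38.p6, 250 bases before to 50 after each start) were given for 32 of the 38 members. Ccna2, Aurkb, Fam64a, Kif20a, Tpx2 and Stmn1 had no entry. A CHR word (TTTGAA or TTCGAA, either strand) lay in 26 of the 32 windows, which is 81.3%, against 16.8% of 9111 measured genes and 21.7% of all 27025 genes with a window. A CCAAT word on either strand lay in 24 windows (75.0%), against 43.1% of measured genes. Both words stood in the same window for 22 members (68.8%), against 7.09% of measured genes. From 150 bases before to 30 bases after the start, 22 members (68.8%) had a CHR word, against 8.97% of measured genes. From 60 bases before to 50 bases after it 24 members had one. For that stretch the share of measured genes was not computed. E2F words (TTCCCGC or TTGGCGC, either strand, with or without one more leading T) were found in 5 windows (15.6%), against 14.3% of measured genes. SP1 words (GGGCGG, either strand) were found in 25 windows (78.1%), against 68.6%. The E2F word TTGGCGC can overlap a reversed CCAAT box (ATTGG), and E2F and SP1 words can overlap each other. A match is a run of letters and does not show a bound site.

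The following stretches run 5′ to 3′ from 150 bases before to 30 bases after the start, on the strand of the gene. Capitals mark CHR words (TTTGAA, its reverse complement TTCAAA, or TTCGAA) and CCAAT boxes (CCAAT or its reverse complement ATTGG). One gene was taken per role, the most highly expressed with a CHR word inside the shown stretch. Their coordinates are Ube2c at chr2:164769779-164769958, plus strand, Top2a at chr11:99024160-99024339, minus strand, Ccnb2 at chr9:70421525-70421704, minus strand, Cenpa at chr5:30666736-30666915, plus strand, Racgap1 at chr15:99651627-99651806, minus strand, Prc1 at chr7:80294301-80294480, plus strand, Kif22 at chr7:127042391-127042570, minus strand and Bub1 at chr2:127831830-127832009, minus strand.
Ube2c: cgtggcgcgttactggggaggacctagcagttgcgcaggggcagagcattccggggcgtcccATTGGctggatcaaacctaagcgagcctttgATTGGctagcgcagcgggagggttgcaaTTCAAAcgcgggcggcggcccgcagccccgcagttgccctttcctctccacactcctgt
Top2a: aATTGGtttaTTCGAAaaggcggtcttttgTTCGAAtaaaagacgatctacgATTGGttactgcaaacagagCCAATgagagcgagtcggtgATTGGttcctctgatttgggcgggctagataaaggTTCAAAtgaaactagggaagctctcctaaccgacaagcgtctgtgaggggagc
Ccnb2: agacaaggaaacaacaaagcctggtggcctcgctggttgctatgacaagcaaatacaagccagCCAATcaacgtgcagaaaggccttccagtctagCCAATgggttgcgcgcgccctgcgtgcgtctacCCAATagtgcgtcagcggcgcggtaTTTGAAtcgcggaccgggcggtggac
Cenpa: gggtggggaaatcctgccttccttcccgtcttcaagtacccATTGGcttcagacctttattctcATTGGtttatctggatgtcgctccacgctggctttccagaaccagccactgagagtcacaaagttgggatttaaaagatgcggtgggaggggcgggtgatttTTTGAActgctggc
Racgap1: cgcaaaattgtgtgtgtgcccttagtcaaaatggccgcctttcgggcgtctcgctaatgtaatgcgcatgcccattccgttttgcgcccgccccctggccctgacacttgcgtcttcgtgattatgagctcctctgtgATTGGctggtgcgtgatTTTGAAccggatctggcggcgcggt
Prc1: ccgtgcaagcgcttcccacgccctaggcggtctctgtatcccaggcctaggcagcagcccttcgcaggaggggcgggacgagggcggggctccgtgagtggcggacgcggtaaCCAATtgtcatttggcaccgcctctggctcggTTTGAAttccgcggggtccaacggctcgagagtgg
Kif22: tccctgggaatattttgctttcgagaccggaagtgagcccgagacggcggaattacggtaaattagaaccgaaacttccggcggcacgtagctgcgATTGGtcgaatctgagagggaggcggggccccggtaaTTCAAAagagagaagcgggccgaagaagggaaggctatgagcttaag
Bub1: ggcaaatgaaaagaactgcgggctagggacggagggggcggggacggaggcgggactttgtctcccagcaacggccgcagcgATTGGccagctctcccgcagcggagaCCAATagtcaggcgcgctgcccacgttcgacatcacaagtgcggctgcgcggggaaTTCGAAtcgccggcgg

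In Ube2c, Ccnb2, Cenpa, Racgap1, Prc1, Kif22 and Bub1 the CHR word of the stretch lies downstream of its CCAAT boxes, while Top2a carries 3 CHR words and 4 CCAAT boxes. No CHR word lay in the windows of Ccnb1, Birc5, Mad2l1, Cenpe, Nuf2 and Nusap1. For Birc5 and Mad2l1 the stretch also holds no CCAAT box, so that nothing is in capitals. They lie at Birc5 at chr11:117849087-117849266, plus strand and Mad2l1 at chr6:66535071-66535250, plus strand.
Birc5: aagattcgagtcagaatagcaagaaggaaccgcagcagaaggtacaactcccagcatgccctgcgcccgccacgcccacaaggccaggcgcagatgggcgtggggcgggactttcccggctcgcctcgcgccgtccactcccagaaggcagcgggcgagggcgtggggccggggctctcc
Mad2l1: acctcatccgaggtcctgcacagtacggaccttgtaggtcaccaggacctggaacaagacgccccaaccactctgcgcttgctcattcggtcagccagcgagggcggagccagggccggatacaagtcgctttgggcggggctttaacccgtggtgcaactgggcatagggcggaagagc

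The plot of motif positions gives all 32 windows. The order differs between genes: in Cdc20 a CCAAT box lies downstream of the CHR word, and Ect2 also has a CHR word upstream of its CCAAT boxes.

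**Figure D1:**
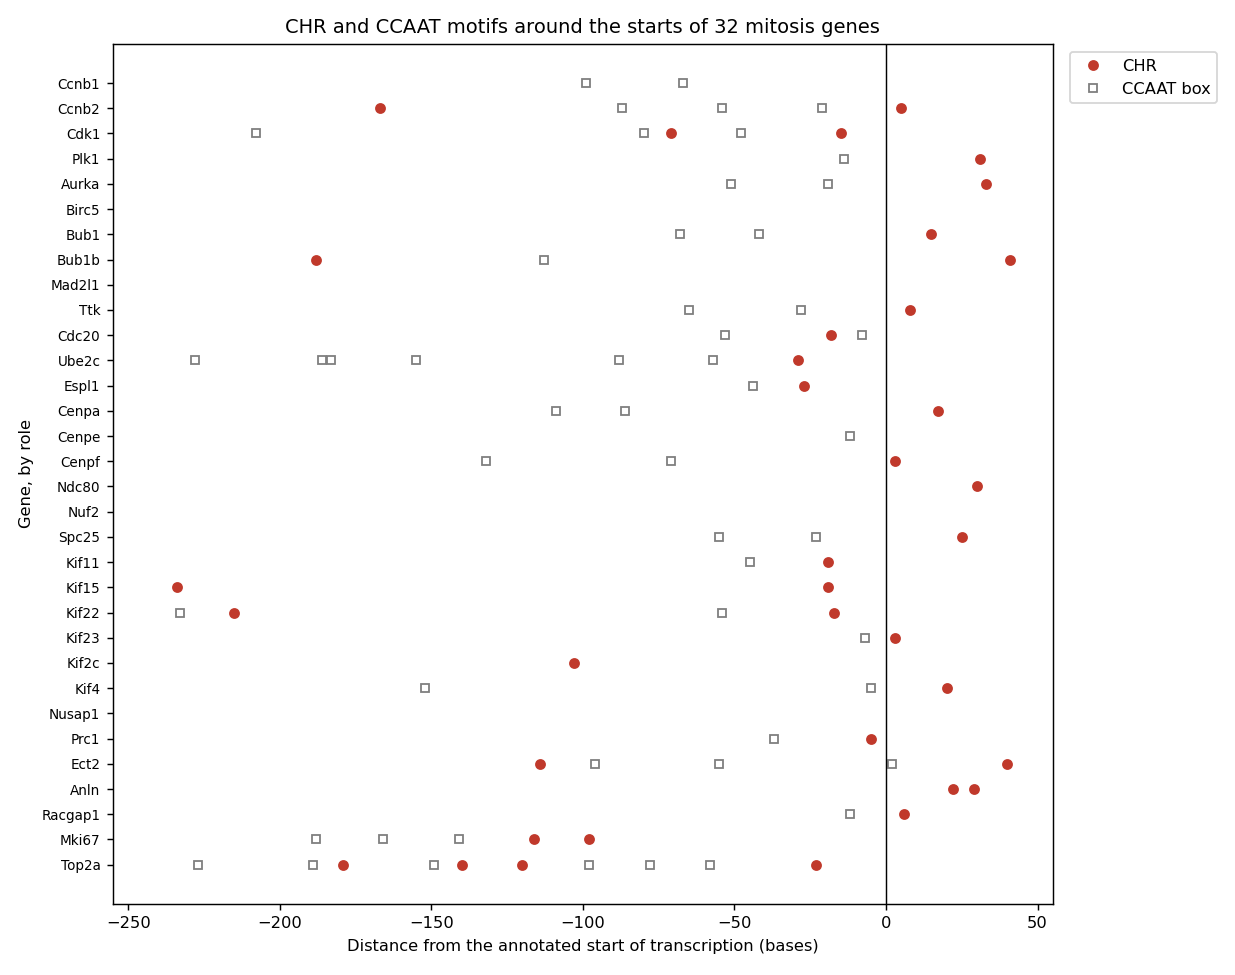
Positions of CHR words (filled circles) and CCAAT boxes (open squares) on either strand around the annotated starts of 32 members; the x axis is the distance of the first base from the start in bases and each row is 1 gene. In 24 of the 32 genes a CHR word lies between 60 bases before and 50 bases after the start. The share of measured genes was not computed for that stretch.

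The libraries were of similar size. The table gives FPKM and no counts; the steps between low values place each library near 21880000 to 22600000 reads, on the assumption of 50-base reads. Between 10023 and 10786 genes reached 1 FPKM per library. All 15 macrophage markers were measured, and their summed level was 4379 to 6087 FPKM in the KO libraries and 10235 to 16175 FPKM in the WT libraries. Most of that difference was Lyz2, with 17.7 to 54.5 FPKM in KO and 3903 to 9015 FPKM in WT. Setd2 itself had 9.96, 9.16 and 5.11 FPKM in KO at 0, 12 and 24 h, against 7.83, 8.68 and 7.51 FPKM in WT. It was thus not lower in KO at 0 and 12 h; a gene-level FPKM does not show which exons were read, and the KO groups rest on their labels.

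All 38 genes were at their highest before LPS and lower at each later time, in KO and in WT cells. Their summed level was 1288, 142 and 29.8 FPKM at 0, 12 and 24 h in KO, against 1917, 182 and 45.4 FPKM in WT. The median member had 25.6, 1.81 and 0.43 FPKM in KO, against 32.2, 2.64 and 0.675 FPKM in WT. In KO 38, 31 and 11 members reached 1 FPKM at the 3 times, and in WT 38, 36 and 15 did. Of all genes, 10786, 10345 and 10023 reached it in KO, and 10664, 10353 and 10213 in WT. A steady decline over both steps was seen in 34.0% of measured genes in KO and 23.9% in WT.

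**Figure D2:**
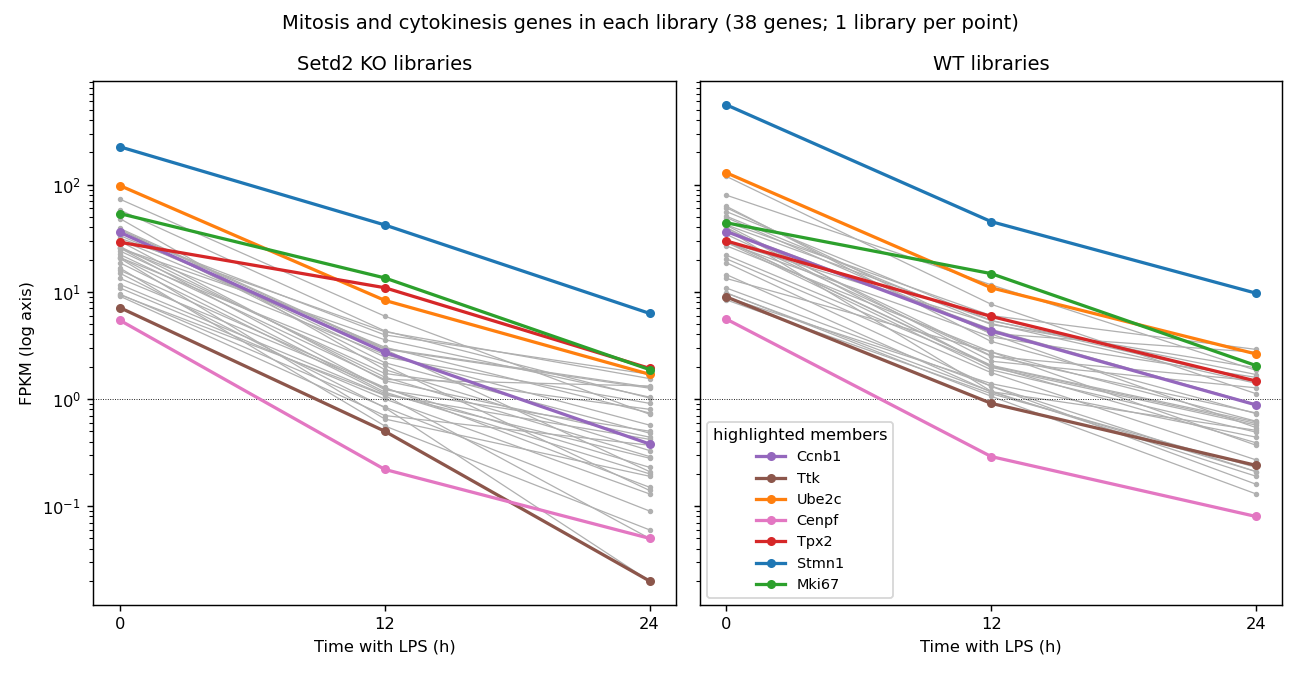
FPKM of the 38 genes (log axis) at 0, 12 and 24 h with LPS in Setd2-KO libraries (left) and WT libraries (right); each point is 1 library, 7 genes are coloured and the dotted line marks 1 FPKM. All 38 lines fall at both steps in both genotypes, from a median of 25.6 FPKM at 0 h in KO and 32.2 FPKM in WT.

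With 1 library per group there is no test of a single comparison. A gene was called where log2(FPKM + 1) differed by 1 or more, a 2-fold difference on that scale, which understates the change of low genes. All 38 members were called lower at 12 h in KO (17.5% of measured genes were called lower) and in WT (17.4%). The same held at 24 h in KO (21.6%) and in WT (13.9%). None was called higher, where 8.63% and 7.55% of measured genes were at 12 and 24 h in KO and 9.64% and 7.65% in WT. The median member changed by -3.11 at 12 h and -4.07 at 24 h in KO, against -2.91 and -4.08 in WT, where the medians of all measured genes were -0.36 and -0.39 in KO and -0.28 and -0.25 in WT. The 12 h and 24 h differences of a genotype share its 0 h library. In a limma fit over all 6 libraries, with genotype and time as additive terms, all 38 were lower at both times with adjusted p of at most 0.00234 at 12 h and 0.000169 at 24 h, when 30.5% and 25.2% of 11547 genes were. It called 0 members higher, against 11.8% and 9.29% of genes. That fit has 2 residual degrees of freedom and takes the disagreement between the genotypes as its error, since no culture was repeated. Its variances were also shrunk toward a trend over all fitted genes, so the p-values rest partly on other genes.

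As a share of the 0 h level, without a pseudocount, the median member kept 7.66% at 12 h and 1.61% at 24 h in KO, against 9.44% and 2.35% in WT. Over all genes at 1 FPKM or more at 0 h (10786 in KO and 10664 in WT) the medians were 71.9% and 69.3% in KO, against 75.6% and 79.4% in WT. At 12 h 30 members in KO and 21 in WT were at or under 10% of their 0 h level, as were 2.48% and 2.30% of genes at 1 FPKM or more at 0 h. At 24 h all 38 were, in KO (4.37% of genes) and in WT (3.54%). The order of the members was alike in both genotypes, which share no library: Spearman's rho of the percent left in KO and in WT was 0.77 at 12 h and 0.66 at 24 h (38 genes, as a description). Fam64a kept least at 12 h, with 3.17% in KO and 3.08% in WT. Tpx2 kept most in KO (37.6%) and Mki67 in WT (33.5%). At 24 h 8 members in KO and 2 in WT rested on fewer than 10 estimated reads, so that their percentages are imprecise. In KO these were Ccnb2, Ttk, Fam64a, Ndc80, Kif2c, Kif4, Ect2 and Anln, and in WT Fam64a and Kif2c.

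**Figure D3:**
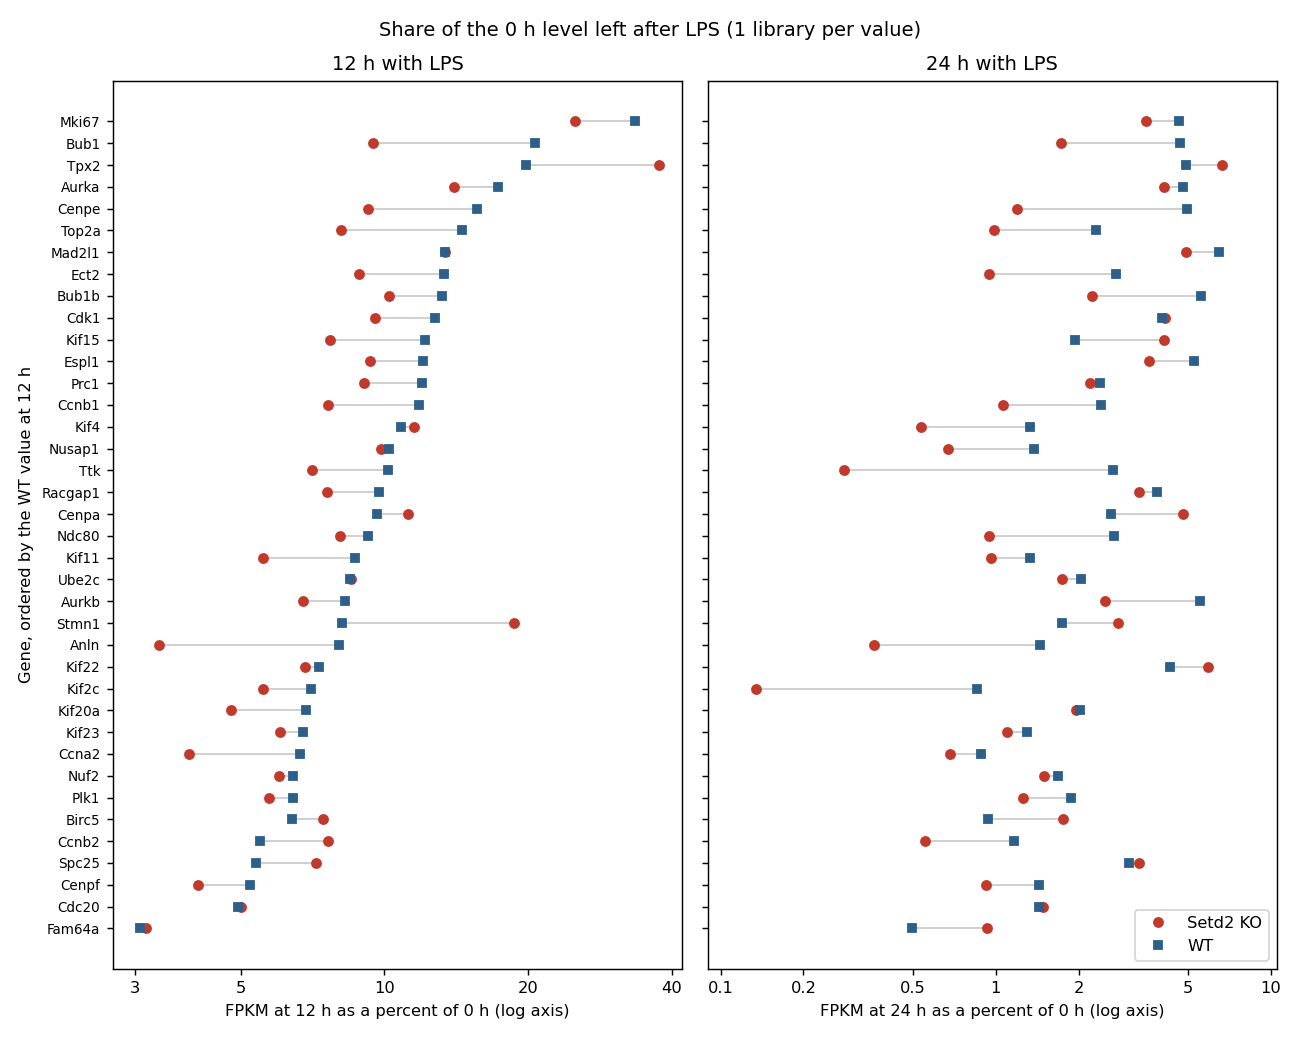
FPKM at 12 h (left) and 24 h (right) as a percent of the 0 h FPKM of the same genotype (log axes) for each of the 38 genes, ordered by the WT value at 12 h; circles are Setd2-KO and squares WT, 1 library per value. The medians are 7.66% in KO and 9.44% in WT at 12 h, and Tpx2 and Stmn1 stand to the right of their WT values at 12 h.

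Mitotic cyclins and kinases are given first, with FPKM always at 0, 12 and 24 h. Ccnb1, the cyclin B1 that activates Cdk1 at entry into mitosis, had 35.87, 2.73 and 0.38 FPKM in KO, against 36.53, 4.32 and 0.88 FPKM in WT. Ccnb2, the second B-type cyclin, had 38.07, 2.9 and 0.21 FPKM in KO, against 62.81, 3.44 and 0.73 FPKM in WT. Ccna2, the cyclin of S phase and G2, had 48.25, 1.88 and 0.33 FPKM in KO, against 60.87, 4.04 and 0.54 FPKM in WT. All 3 cyclins fell by more than 2 units on the log2 scale at 12 h. Within KO, Ccna2 had the largest fall of all members at that time on the log2(FPKM + 1) scale (-4.10). By percent of the 0 h level left in KO, Fam64a (3.17%) and Anln (3.36%) were below Ccna2 (3.90%). Cdk1, the kinase they bind, had 30.46, 2.91 and 1.26 FPKM in KO, against 42.12, 5.37 and 1.69 FPKM in WT. For Plk1, the Polo-like kinase of centrosome maturation and mitotic entry, the values were 38.12, 2.18 and 0.48 FPKM in KO, against 39.37, 2.53 and 0.74 FPKM in WT. Aurka, the Aurora kinase of the spindle poles, had 25.54, 3.57 and 1.04 FPKM in KO, against 29.21, 5.06 and 1.4 FPKM in WT. Plk1 lost more than Aurka by 12 h: 5.72% of its 0 h level was left in KO and 6.43% in WT, while Aurka kept 13.98% and 17.3%.

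Of the chromosomal passenger complex, which corrects faulty attachments and later marks the midzone, Aurkb (its kinase) had 36.47, 2.46 and 0.91 FPKM in KO, against 49.34, 4.08 and 2.73 FPKM in WT. Birc5 (survivin, the subunit that takes the complex to centromeres) had 57.99, 4.32 and 1.02 FPKM in KO, against 119.46, 7.65 and 1.12 FPKM in WT. Birc5 was lower in KO before LPS, and after 24 h the 2 genotypes lay within counting error of each other, with a ratio of KO to WT of 0.911 (95% interval 0.600 to 1.37, counting error only). Aurkb stood at 0.739 of the WT level before LPS and at 0.333 of it at 24 h (95% interval 0.226 to 0.483) on 39 estimated reads in KO and 115 in WT.

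All 4 spindle checkpoint genes kept more of their level at 12 h than the median member in WT, and all but Ttk (7.03%) did in KO. Bub1, the kinase that recruits the checkpoint to kinetochores, had 13.34, 1.26 and 0.23 FPKM in KO, against 13.32, 2.75 and 0.62 FPKM in WT. Bub1b (BubR1), a subunit of the checkpoint's inhibitory complex, had 25.49, 2.6 and 0.57 FPKM in KO, against 28.65, 3.79 and 1.59 FPKM in WT. Mad2l1 (Mad2), which together with BubR1 holds back Cdc20, had 31.64, 4.24 and 1.55 FPKM in KO, against 44.72, 6 and 2.9 FPKM in WT. Bub1 was level between genotypes at 0 h, and at 12 h it kept 9.45% in KO against 20.6% in WT. Ttk (Mps1), the kinase at the head of the checkpoint, had 7.11, 0.5 and 0.02 FPKM in KO, against 8.96, 0.91 and 0.24 FPKM in WT, and the KO value at 24 h is worth about 1 read.

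Among the anaphase and mitotic exit genes, all but Espl1 kept less than the median member at 12 h in WT; in KO Ube2c (8.49%) kept more than the median too. Cdc20, the activator of the anaphase-promoting complex that the checkpoint inhibits, had 29.64, 1.48 and 0.44 FPKM in KO, against 39.85, 1.97 and 0.57 FPKM in WT. Ube2c, the ubiquitin-conjugating enzyme of that complex, had 97.98, 8.32 and 1.7 FPKM in KO, against 129.01, 10.9 and 2.63 FPKM in WT. Cdc20 kept 4.99% in KO and 4.94% in WT at 12 h, among the lowest of the members. Espl1 (separase), the protease that opens cohesin rings, had 11.69, 1.09 and 0.42 FPKM in KO, against 9.72, 1.17 and 0.51 FPKM in WT. Fam64a, a mitotic regulator also known as Pimreg, had 20.51, 0.65 and 0.19 FPKM in KO, against 38.33, 1.18 and 0.19 FPKM in WT. Fam64a was at 0.19 FPKM in both genotypes at 24 h, each value worth about 6 reads. The 95% interval of its ratio of KO to WT was 0.263 to 3.68 (counting error only).

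Among centromere and kinetochore genes, Cenpa, the histone H3 variant that marks centromeres, had 35.33, 3.96 and 1.7 FPKM in KO, against 56.1, 5.41 and 1.47 FPKM in WT. Cenpe, the kinetochore motor that brings chromosomes to the spindle equator, had 10.85, 1 and 0.13 FPKM in KO, against 8.9, 1.39 and 0.44 FPKM in WT. Cenpf, a large kinetochore protein of G2 and M phase, had 5.42, 0.22 and 0.05 FPKM in KO, against 5.56, 0.29 and 0.08 FPKM in WT. Cenpf had the lowest level at 0 h of all members, and its change at 24 h, -2.61 in KO and -2.60 in WT, was the smallest on the log2(FPKM + 1) scale. That scale limits the fall of a gene that starts low. As a share of its 0 h level Cenpf kept 0.92% in KO and 1.44% in WT, less than the median member (1.61% and 2.35%). The other 3 are subunits of the Ndc80 complex, which grips microtubules. Ndc80 had 15.87, 1.28 and 0.15 FPKM in KO, against 21.99, 2.03 and 0.59 FPKM in WT. Nuf2, its partner, had 18.65, 1.12 and 0.28 FPKM in KO, against 29.02, 1.87 and 0.49 FPKM in WT. Spc25, on the inner side of the complex, had 24.06, 1.73 and 0.8 FPKM in KO, against 41.74, 2.25 and 1.27 FPKM in WT. All 3 were among the 26 members lower in KO than in WT at each of the 3 times (19.8% of measured genes).

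Kinesin motors fell together. Kif11 (Eg5), which pushes the spindle poles apart, had 20.86, 1.16 and 0.2 FPKM in KO, against 20.31, 1.76 and 0.27 FPKM in WT. Kif15, a second plus-end motor of the spindle, had 9.09, 0.7 and 0.37 FPKM in KO, against 10.85, 1.32 and 0.21 FPKM in WT. Kif22, a chromosome-arm motor, had 22.3, 1.52 and 1.32 FPKM in KO, against 34.3, 2.5 and 1.48 FPKM in WT. Kif22 kept 6.82% in KO and 7.29% in WT at 12 h, and in KO it changed by only -0.12 on the log2 scale between 12 and 24 h. Kif20a, a motor of the central spindle, had 25.61, 1.22 and 0.5 FPKM in KO, against 30.05, 2.06 and 0.61 FPKM in WT. Kif23, which joins the centralspindlin complex at the midzone, had 26.46, 1.6 and 0.29 FPKM in KO, against 30.05, 2.03 and 0.39 FPKM in WT. Kif2c (MCAK), which takes microtubule ends apart, had 14.91, 0.83 and 0.02 FPKM in KO, against 18.68, 1.31 and 0.16 FPKM in WT. Kif2c kept least of its 0 h level in KO at 24 h (0.134%), a value worth about 1 read. Kif4, the chromokinesin that sets midzone length, had 9.37, 1.08 and 0.05 FPKM in KO, against 9.79, 1.06 and 0.13 FPKM in WT.

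The spindle and microtubule proteins held the members furthest below WT at 0 h (Stmn1) and furthest above it at 12 h (Tpx2). Tpx2, which activates Aurora A and nucleates spindle microtubules, had 29.01, 10.92 and 1.93 FPKM in KO, against 29.81, 5.89 and 1.47 FPKM in WT. The genotypes were level at 0 h, and at 12 h Tpx2 was higher in KO, with a ratio to WT of 1.85 (95% interval 1.67 to 2.06, counting error only). Stmn1 (stathmin), which sequesters tubulin and is the most abundant member, had 225.44, 42.08 and 6.29 FPKM in KO, against 555.77, 45.19 and 9.71 FPKM in WT. Its ratio of KO to WT was 0.406 at 0 h and 0.931 at 12 h. Nusap1, a microtubule bundler near chromosomes, had 20.91, 2.06 and 0.14 FPKM in KO, against 26.87, 2.75 and 0.37 FPKM in WT. Prc1, which bundles antiparallel microtubules in the midzone, had 33.53, 3.04 and 0.74 FPKM in KO, against 37.35, 4.47 and 0.89 FPKM in WT. Nusap1 and Prc1 were also among the 26 members lower in KO than in WT at all 3 times (19.8% of measured genes).

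Of the cytokinesis ring genes, 2 of 3 were above WT before LPS in the values as deposited. Ect2, an exchange factor needed for cytokinesis, had 9.5, 0.84 and 0.09 FPKM in KO, against 8.4, 1.12 and 0.23 FPKM in WT. Anln (anillin), the scaffold of the contractile ring, had 16.66, 0.56 and 0.06 FPKM in KO, against 14.47, 1.16 and 0.21 FPKM in WT. Racgap1, the centralspindlin subunit that recruits Ect2, had 39.05, 2.96 and 1.29 FPKM in KO, against 50.76, 4.95 and 1.95 FPKM in WT. Ect2 and Anln were above WT at 0 h and below it at 12 and 24 h, while Racgap1 was below at all 3 times. With the trend on transcript length described below removed, Ect2 and Anln were below WT at 0 h as well (-0.03 and -0.06 on the log2 scale). The last pair lies on or in the chromosomes. Mki67 (Ki-67), which coats mitotic chromosomes and is a widely used marker of dividing cells, had 53.69, 13.48 and 1.88 FPKM in KO, against 44.06, 14.78 and 2.05 FPKM in WT. Top2a, the topoisomerase that untangles sister chromatids, had 73.22, 5.93 and 0.72 FPKM in KO, against 79.76, 11.62 and 1.85 FPKM in WT. Mki67 kept 25.1% in KO and 33.5% in WT at 12 h, and Top2a kept 8.10% and 14.6%. At 12 h Top2a stood at 0.510 of the WT level (95% interval 0.464 to 0.560, counting error only); by the plain ratio Bub1 was lowest, at 0.458 of WT.

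The 24 h step was smaller than the first. Against 12 h, 16 members were called lower in KO (7.67% of measured genes) and 19 in WT (3.79%); 0 were called higher in KO (4.78%) and in WT (1.82%). The median changes were -0.88 in KO and -1.003 in WT. Many members were already near 1 FPKM at 12 h, where a further fall is small on the log2(FPKM + 1) scale. With a pseudocount of 0.1 the counts were 36 in KO and 35 in WT, where 13.3% and 6.96% of measured genes were called lower. With a pseudocount of 5 they were 3 in KO and 5 in WT (2.59% and 1.40% of measured genes).

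Between genotypes the differences were smaller than the fall after LPS and mostly in one direction. The member median was -0.26 at 0 h, -0.39 at 12 h and -0.22 at 24 h, KO minus WT, where the medians of all measured genes were 0.02, -0.06 and -0.12. A pseudocount of 0.1 gave member medians of -0.29, -0.53 and -0.59, where those of all measured genes were 0.02, -0.07 and -0.15. The median ratio of KO to WT was 0.818, 0.683 and 0.638 at the 3 times. KO was below WT in 31 members at 0 h, 36 at 12 h and 34 at 24 h, against 46.7%, 59.4% and 61.4% of measured genes. It was below WT at all 3 times in 26 members, against 19.8% of measured genes. The 3 comparisons share no library, but the labels do not say whether the cultures of a genotype came from the same animals.

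On the log2(FPKM + 1) scale few of these differences reached 2-fold. At 0 h 2 members were called lower in KO, Stmn1 (-1.30) and Birc5 (-1.03), where 1.26% of measured genes were called lower, and 0 were called higher (2.96% of measured genes). At 12 h 0 were called lower (0.727% of measured genes) and 0 higher (1.32%), with Top2a lowest (-0.86) and Tpx2 highest (0.79). At 24 h 0 were called lower (1.93%) and 0 higher (2.22%), with Aurkb lowest (-0.97) and Tpx2 highest (0.25). By the plain ratio of FPKM, a scale added after seeing the data, KO was at or under 0.5 of WT in 2 members at 0 h, 3 at 12 h and 14 at 24 h, against 2.81%, 2.52% and 7.51% of measured genes. Of the 24 h values several rest on few reads, as given above. In the limma fit 0 members differed between genotypes (14 of 38 had an unadjusted p under 0.05, as had 8.71% of all genes, and the lowest adjusted p was 0.375). That is no evidence that the genotypes were alike, since the fit called 2 of 11547 genes lower (0.0173%) and 0 higher.

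The 0 h difference moved with transcript length. Across the 38 members, Spearman's rho between the KO minus WT difference and transcript length was 0.79 at 0 h, 0.09 at 12 h and 0.28 at 24 h; over the 7649 genes averaging 5 FPKM or more it was 0.60 at 0 h, and over 7651 such genes 0.13 at 12 h and -0.44 at 24 h (descriptions, with genes that share the same libraries). The 10 shortest members, from 967 to 1950 bases, had a median difference of -0.57 at 0 h, and the 10 longest, from 4375 to 11130 bases, one of 0.00. When a smooth trend on length, drawn over 5574 genes, was removed, both medians at 0 h were -0.33. The members' rho was then 0.14, 0.03 and 0.42 at the 3 times. Stmn1 and Birc5 then stood at -0.88 and -0.96, and 0 members were called lower at 0 h (0.736% of measured genes). The median over all 38 was -0.33 at 0 h, -0.37 at 12 h and -0.19 at 24 h, with 36, 37 and 33 members below WT, against 50.3%, 59.3% and 60.1% of measured genes. Bub1, Espl1, Cenpe, Kif11, Ect2, Anln and Mki67, which were not below WT at 0 h as deposited, were below it after removal. After removal 31 members were below WT at all 3 times, against 24.9% of measured genes.

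**Figure D4:**
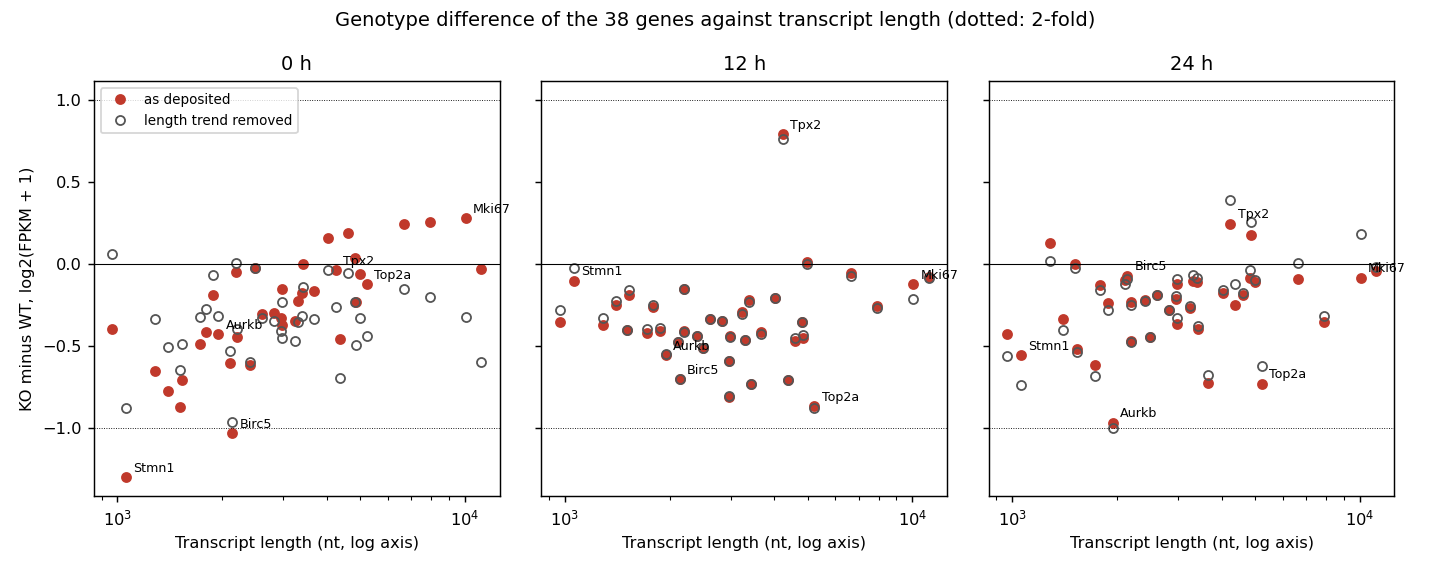
KO minus WT difference in log2(FPKM + 1) against transcript length (log axis) at 0, 12 and 24 h for the 38 genes; filled circles are values as deposited, open circles have the length trend removed, and dotted lines mark 2-fold. At 0 h the filled circles climb with length (Spearman's rho 0.79) and the open circles do not (0.14).

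On the log2(FPKM + 1) scale the fall differed little between genotypes. The KO minus WT difference of the LPS response had a member median of -0.08 at 12 h and 0.01 at 24 h. The medians of all measured genes were -0.07 and -0.12. At 12 h 1 member was called higher, Stmn1 (1.20; 1.65% of measured genes), and 0 lower (3.14%); at 24 h 0 were called higher (4.04%) and 0 lower (8.63%). Stmn1 was the member with the largest 0 h difference, and that library enters its response. With the length trend removed the single call at 12 h was Tpx2 (1.02) instead (1.45% of measured genes). A pseudocount of 0.1, which limits low genes less, gave member medians of -0.27 at 12 h and -0.29 at 24 h. Those of all measured genes were then -0.10 and -0.18. The percent of the 0 h level left was lower in KO for 28 of 38 members at 12 h and for 28 at 24 h, against 58.7% and 59.7% of the 10450 genes at 1 FPKM or more in both 0 h libraries.

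The rest of the cell cycle was read from lists of genes outside the 38. Of all measured genes, 17.5% in KO and 17.4% in WT were called lower at 12 h, and 21.6% and 13.9% at 24 h. Of 62 other mitotic genes, 60 in KO and 59 in WT were called lower at 12 h, and 59 in KO and 60 in WT at 24 h. They kept a median of 12.4% at 12 h and 3.02% at 24 h in KO, against 13.8% and 4.26% in WT. The exception in direction was Pttg1 (securin, the inhibitor of separase), with 21.83, 56.95 and 68.71 FPKM in KO, against 24.33, 31.7 and 48.19 FPKM in WT; it was called higher in KO at both times. Of 50 DNA replication genes, 49 in KO and 50 in WT were called lower at 12 h, and 48 and 50 at 24 h. These kept more at 12 h than the mitotic genes, with a median of 16.0% in KO and 22.4% in WT.

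Genes that act in G1 and in transcription were mixed. Of 18 genes for G1 cyclins, their kinases, RB proteins and activating E2F factors, 13 in KO and 9 in WT were called lower at 12 h. The shares of measured genes were 17.5% and 17.4%. Ccnd1, the cyclin D1 that growth factors induce, had 137.22, 11.3 and 10.75 FPKM in KO, against 53.46, 11.2 and 2.78 FPKM in WT. Ccnd2, another D-type cyclin, went the other way at 12 h, with 6.03, 33.59 and 7.67 FPKM in KO and 1.31, 15.12 and 3.97 FPKM in WT. Of 16 genes for mitotic transcription factors, the MuvB complex and repressive E2F factors, 5 in KO and 4 in WT were called lower at 12 h. At 24 h 10 and 7 were, against 21.6% and 13.9% of measured genes. Foxm1, the factor that drives mitotic genes in G2, had 21.67, 1.44 and 0.13 FPKM in KO, against 21.26, 2.42 and 0.42 FPKM in WT. Mybl2 (B-Myb) had 13.46, 1.13 and 0.42 FPKM in KO, against 14.19, 2.09 and 0.41 FPKM in WT.

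The remaining lists moved less. Of 23 genes for subunits of the anaphase-promoting complex and for mitotic phosphatases, 3 in KO and 5 in WT were called lower at 12 h. These counts lie near the shares of all measured genes, 17.5% and 17.4%. The median of the 23 genes kept 77.5% in KO and 71.6% in WT. One of the called genes was Fbxo5 (Emi1, an inhibitor of that complex), with 19.87, 1.36 and 0.5 FPKM in KO, against 29.05, 2 and 1.03 FPKM in WT. Of 26 CDK inhibitors and antiproliferative genes, 3 in KO and 3 in WT were called higher at 12 h (8.63% and 9.64% of measured genes), and 4 and 5 at 24 h (7.55% and 7.65%). More were called lower at 12 h, 7 in KO and 8 in WT (17.5% and 17.4%), and at 24 h 10 in KO and 5 in WT were (21.6% and 13.9%). Cdkn1a (p21), an inhibitor of cyclin-dependent kinases, had 174.89, 247.38 and 411.42 FPKM in KO, against 125.04, 187.09 and 260.49 FPKM in WT. Cdkn2c (p18) moved with the mitotic genes, with 33.1, 1.97 and 0.91 FPKM in KO, against 57.81, 4.5 and 2.12 FPKM in WT. Of 10 measured genes of M-CSF receptor signalling, 0 were called lower at either time in either genotype, where 13.9% to 21.6% of measured genes were. At 12 h 3 in KO and 3 in WT were called higher (8.63% and 9.64% of measured genes), and at 24 h 0 were in either. Csf1r, the receptor itself, had 510.57, 391.55 and 445.91 FPKM in KO, against 495.64, 572.88 and 826.05 FPKM in WT.

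**Figure D5:**
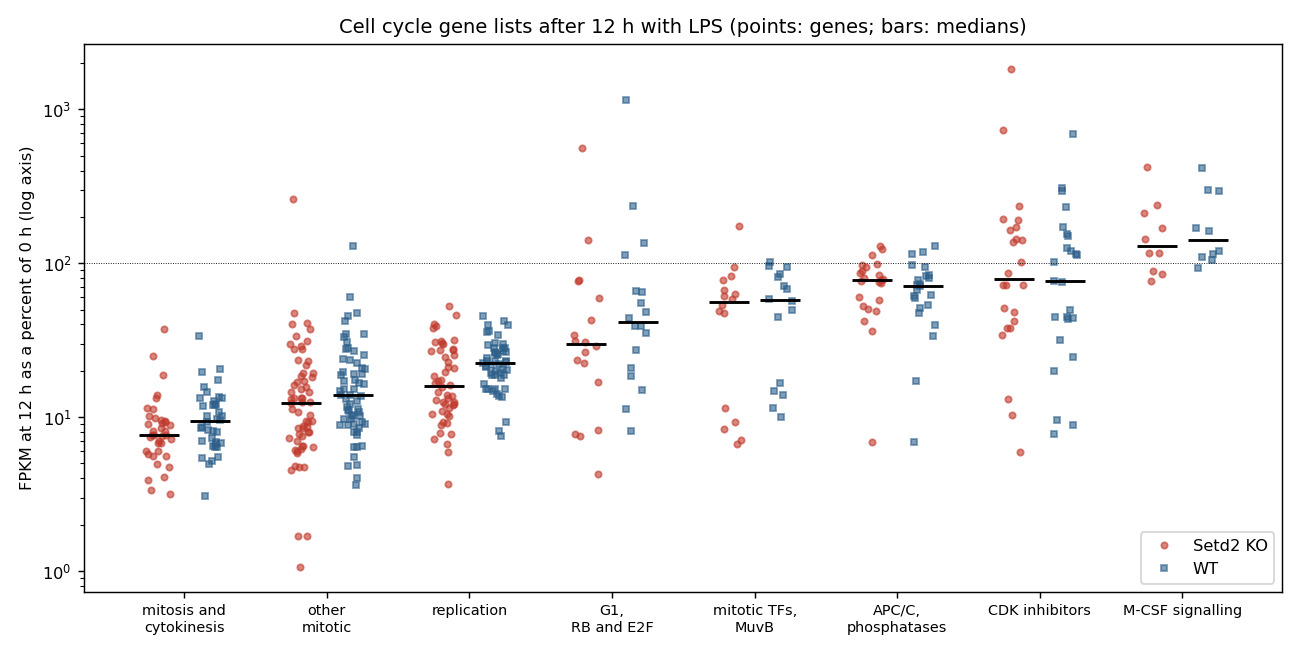
FPKM at 12 h as a percent of 0 h (log axis) for the 38 mitosis and cytokinesis genes and 7 other lists; points are genes at 1 FPKM or more at 0 h, circles Setd2 KO and squares WT, and black bars are medians. The medians are 7.66% in KO and 9.44% in WT for the 38 genes, 16.0% and 22.4% for replication genes, and 77.5% and 71.6% for the anaphase-promoting complex and phosphatases.

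Some progenitor markers were also lower after LPS. The 9 progenitor markers summed to 35.5, 6.38 and 2.44 FPKM in KO, against 26.3, 6.31 and 3.26 FPKM in WT, and 5 of the 9 were measured. Of these 5, at 12 h 1 in KO and 3 in WT were called lower (17.5% and 17.4% of measured genes). At 24 h 4 were in each genotype (21.6% in KO and 13.9% in WT). Most of the summed level at 0 h was Cd34, with 27.17, 2.98 and 0.9 FPKM in KO, against 15.18, 1.81 and 0.75 FPKM in WT. The defining markers Kit, Flt3, Gata2 and Myb stayed under 1 FPKM in all 6 libraries, and none of the 9 was at 0 in all libraries. The 8 neutrophil markers summed to 64.9, 53.7 and 114 FPKM in KO, against 94.8, 103 and 129 FPKM in WT. The summed levels of markers of T and NK cells, B cells, dendritic cells and mast cells were each at most 4.20 FPKM in every library. The 9 erythroid and megakaryocyte markers summed to 111, 115 and 701 FPKM in KO, against 119.5, 120.6 and 264 FPKM in WT, nearly all of it Pf4, a chemokine that macrophages also make, while Klf1 and Alas2 stayed under 1 FPKM. The 8 fibroblast markers summed to 13.03, 12.01 and 11.48 FPKM in KO, against 7.13, 10.4 and 12.9 FPKM in WT. The part of other cells in the fall of the mitotic genes was not tested.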

How the data were processed

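RNA sequencing values came as 1 table that the authors deposited, with FPKM per gene for 6 libraries of mouse macrophages. Bowtie2, RSEM and the build GRCm38 are named in the submitters' processing notes, without versions; no count is given, and normalization beyond FPKM is not given in the sources used here. Of 17905 rows, 1 without a gene name was left out, 25 symbols that a spreadsheet had turned into dates were restored, and 2 non-numeric cells (Cd36 and Cers5) were read as missing. 0 columns of values lacked a sample.

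Differences were taken in log2(FPKM + 1) between single libraries and called at 2-fold among genes reaching 1 FPKM in any library, in Python 3.11.15. As an alternative, limma 3.58.1 in R 4.3.3 fitted genotype and time additively over all measured genes, with Benjamini-Hochberg adjustment. Gene variances were moderated over all fitted genes, with a trend on expression level and the robust option. Simulated data were used to test the limma fit, the estimate of reads and the removal of the length trend. Reads were estimated from whole-read steps of low values; 95% intervals of ratios treat these estimates as counts (exact binomial, counting error only). Transcript lengths came from GENCODE, for 11457 measured genes (99.2%), and a smooth length trend (span 0.3, genes of 10 FPKM or more on average) was removed as an alternative. Promoter windows came from RefSeq.

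Every one of the 38 genes is named. From other lists only called genes, or up to 4 with the largest difference in a comparison, were eligible, apart from markers. Sequences were shown for up to 8 genes with a CHR word in the shown stretch and 2 without one. The genes, lists and rules were chosen with earlier results of these data known. No replicate libraries were given, so no value carries a replicate error.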

Additional observations from a re-analysis of the deposited data

How the results depend on the processing

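The fall after LPS held under every alternative: between 37 and 38 of 38 members were called lower at 12 and 24 h in KO and in WT with other pseudocounts (0.1 or 5), minimums, a 1.5-fold rule, other scalings and the length trend removed, and 30 of 30 without members under 10 estimated reads. With the 1.5-fold rule 36.3% of measured genes were called lower at 12 h in KO and 34.2% in WT. At 24 h 40% and 28.3% were. A pseudocount of 0.1 gave 23.8% and 29.1% at 12 and 24 h in KO and 22.8% and 18.5% in WT. A pseudocount of 5 gave 7.65% and 9.4% in KO and 9.02% and 7.1% in WT. Removing the length trend gave 17.3% and 17.9% in KO and 15.5% and 13.1% in WT. A minimum of 5 FPKM called 1292 to 2004 genes lower in these comparisons, and the other scalings 1048 to 1471. Median-of-ratios scaling moved the all-gene medians at 12 and 24 h to -0.01 and -0.01 in KO and -0.02 and 0.00 in WT, and the member medians to -2.77 and -3.76 in KO and -2.62 and -3.83 in WT. It raised the share of higher calls among all calls from 33.0% to 55.9% at 12 h and from 25.9% to 51.3% at 24 h in KO, and from 35.6% to 54.0% and from 35.5% to 52.3% in WT. No call changed direction. The member median of the LPS response, KO minus WT, which lies near 0 with a pseudocount of 1, moved with the pseudocount and changed sign. It was -0.27 at 12 h and -0.29 at 24 h with a pseudocount of 0.1, and 0.03 and 0.16 with a pseudocount of 5. The all-gene medians were -0.10 and -0.18 with 0.1, and -0.03 and -0.06 with 5.

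Counts near the threshold moved. Members lower in KO at 0 h (2) were 1 with a pseudocount of 5, 8 with the 1.5-fold rule and 0 with the length trend removed (0.312%, 7.79% and 0.736% of measured genes). At 12 h (0) they were 2 with a pseudocount of 0.1 and 6 with the 1.5-fold rule (1.86% and 3.73%), which also called 1 higher (4.28%). At 24 h (0) they were 10 and 4 with those settings (5.86% and 10.8%). Lower at 24 than at 12 h were 16 members in KO. They were 36, 3 and 30 under pseudocounts of 0.1 and 5 and the 1.5-fold rule (13.3%, 2.59% and 19.8% of measured genes). In WT 19 members were lower, with 35, 5 and 33 under those settings (6.96%, 1.4% and 10.1%). For the LPS response, KO minus WT, an alternative chosen after seeing the data, 2 were lower at 12 h with a pseudocount of 0.1 (6.06% of measured genes). With the 1.5-fold rule 3 were lower (12.2%) and 2 higher (7.12%). At 24 h 8 were lower with a pseudocount of 0.1 (14.4%). With the 1.5-fold rule 2 were lower (23.5%) and 4 higher (13.6%). With median-of-ratios or trimmed-mean scaling 1 was higher, where 724 or 710 measured genes were. The cause of these moves was not tested.

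No paired analysis was possible because each group has 1 library, all with replicate number 1, so that no number can pair libraries; the additive fit of genotype and time uses no such block. Depth limits the 24 h values most, where 8 members in KO rest on under 10 estimated reads.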
